A study of Mus musculus with 18 samples.

Results

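The 8 collagen genes followed in tail tendon fibroblasts (TFs) were the collagen VI genes *Col6a1*, *Col6a2* and *Col6a3*, the collagen VIII genes *Col8a1* and *Col8a2*, and *Col12a1*, *Col14a1* and *Col16a1*. They were chosen by gene name, and all 8 were found among the 55491 rows of the gene table. Polyadenylated RNA was sequenced in 18 libraries of TFs that had grown out of mouse tail tendons in collagen gels, been passaged and plated, and been kept for 4 days in 20% or 1% O2. The 6 groups of 3 libraries were Ctrl TFs in 20% O2, Ctrl TFs in 1% O2, cKO TFs in 20% O2, cKO TFs in 1% O2, and Ctrl TFs given Cre gesicles in 20% and in 1% O2. The mice were male and female and 4 to 6 months old. The cKO mice were *Hif1a* fl/fl with a Cre driven by *Scx*, a gene of the tendon lineage, which acts from early development and can also act in cells outside tendon. The labels call the Ctrl TFs wild-type, and by the study's methods the tail TFs of the Ctrl group came from Cre-negative mice. Gesicles are cell-derived vesicles used to deliver a protein, here Cre, and the submitters give their purpose as *Hif1a* knockdown in culture. Whether the recombination took place was not tested here.

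Collagens outside the fibril-forming class organize the surroundings of tendon cells. Collagen VI is a heterotrimer of α1, α2 and α3 chains that assembles into beaded microfilaments around the cell, and loss of any chain causes muscle and connective tissue disease in people. Collagen VIII forms short-chain networks in vessel walls and in the basement membrane of the cornea, whereas collagens XII, XIV and XVI are fibril-associated collagens with interrupted triple helices (FACITs), which sit on the surface of collagen fibrils or link them to their surroundings.

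In GRCm38 coordinates, *Col6a1* (ENSMUSG00000001119) lies at chr10:76708792-76726168 and *Col6a2* (ENSMUSG00000020241) at chr10:76595762-76623630, both on the minus strand with 85161 bases between them. *Col6a3* (ENSMUSG00000048126) lies apart from them at chr1:90765923-90843971. *Col8a1* (ENSMUSG00000068196) is at chr16:57624258-57754737 and *Col8a2* (ENSMUSG00000056174) at chr4:126286793-126314330. The FACIT genes are at chr9:79598991-79718831 for *Col12a1* (ENSMUSG00000032332), chr15:55307750-55520803 for *Col14a1* (ENSMUSG00000022371) and chr4:130047840-130099283 for *Col16a1* (ENSMUSG00000040690). The exon count ran from 4 in *Col8a1* to 72 in *Col16a1*. *Col12a1*, *Col14a1* and *Col6a3* overlap other annotated genes, with which they share 0 exon bases.

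The RefSeq promoter table for GRCm38.p6, with 250 bases before and 50 after each start site, held 6 of the 8 genes. The windows of the collagen VI chains are shown because *Col6a1* and *Col6a2* were each the other's most alike gene across libraries. *Col6a3* was not among the genes most like them. That of *Col8a1* is shown because its mRNA was lower in 1% O2 in every same-numbered pair of libraries. Capitals mark ACGTG or GCGTG, the core letters of the site that HIF factors bind, and GGGCGG, the GC box, on either strand. The windows are chr10:76725995-76726294 for *Col6a1*, chr10:76623355-76623654 for *Col6a2*, chr1:90843922-90844221 for *Col6a3* and chr16:57754688-57754987 for *Col8a1*, all on the minus strand.
Col6a1: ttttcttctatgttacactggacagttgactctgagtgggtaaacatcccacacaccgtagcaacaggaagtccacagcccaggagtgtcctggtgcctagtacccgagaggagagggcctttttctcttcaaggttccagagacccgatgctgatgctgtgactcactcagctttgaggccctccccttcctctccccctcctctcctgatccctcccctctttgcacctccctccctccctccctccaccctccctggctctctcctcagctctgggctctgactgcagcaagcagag
Col6a2: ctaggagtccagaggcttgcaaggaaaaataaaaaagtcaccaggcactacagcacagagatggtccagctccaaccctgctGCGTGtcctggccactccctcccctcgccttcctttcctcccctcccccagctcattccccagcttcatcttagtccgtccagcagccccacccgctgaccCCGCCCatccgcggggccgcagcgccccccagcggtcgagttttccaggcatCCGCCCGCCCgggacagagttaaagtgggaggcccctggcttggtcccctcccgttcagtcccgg
Col6a3: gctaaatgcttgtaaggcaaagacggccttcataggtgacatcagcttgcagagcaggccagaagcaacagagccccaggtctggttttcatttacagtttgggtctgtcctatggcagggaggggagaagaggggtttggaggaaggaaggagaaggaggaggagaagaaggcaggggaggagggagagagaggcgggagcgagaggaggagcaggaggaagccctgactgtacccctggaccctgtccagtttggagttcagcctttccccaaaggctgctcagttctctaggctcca
Col8a1: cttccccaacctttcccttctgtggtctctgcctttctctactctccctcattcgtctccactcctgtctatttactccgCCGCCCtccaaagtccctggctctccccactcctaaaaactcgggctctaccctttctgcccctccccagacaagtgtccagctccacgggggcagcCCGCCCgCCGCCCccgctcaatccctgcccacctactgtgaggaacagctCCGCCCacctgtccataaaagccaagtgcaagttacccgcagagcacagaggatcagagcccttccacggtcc
ACGTG or GCGTG was found 1 time in this window of *Col6a2* and in 0 places in the other 3, and 43.8% of all 32851 windows of this length held at least 1 copy. GGGCGG was found 3 times in this window of *Col6a2* and 4 times in that of *Col8a1*, and 35.7% of all windows held it. The windows of *Col6a1* and *Col6a3* held neither. *Col6a2* had a second annotated window, starting at its GENCODE gene start, with 1 GC box. These are matches of letters only, and the lack of a match covers this window alone.

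Library totals ran from 6857558 to 51806453 counts. The lowest was that of replicate 1 of cKO TFs in 1% O2, and the next was 26967440. The floor of 3 counts corresponded to 0.0579 to 0.437 CPM (the count over the library total, with TMM scaling), and every library held at least 54 counts of each of the 8 genes. *Hif1a* mRNA was 335, 339.6 and 371 CPM in Ctrl TFs in 20% O2 and 406, 294 and 431 CPM in cKO TFs in 20% O2. In 1% O2 it was 488, 365 and 406 CPM in Ctrl TFs and 428, 398 and 504 CPM in cKO TFs. The groups overlapped, and since the table counts the whole gene and not its exons, these values do not check the deletion. *Slc16a3*, the hypoxia-induced lactate exporter MCT4, rose in 1% O2 by 6.44 log2 units in Ctrl TFs (edgeR adjusted p = 4.4e-07), 5.26 in cKO TFs (adjusted p = 2.6e-06) and 6.10 in gesicle-treated TFs (adjusted p = 6.0e-09). Summed tendon markers were 1378 to 3150 CPM over the 18 libraries. Summed markers of fibroblasts were 10124 to 13173 CPM in Ctrl and 5396 to 8398 CPM in cKO TFs in 20% O2, and 6381 to 12073 and 3818 to 7457 CPM in 1% O2, where they overlapped. The sum was carried by *Col1a1* and *Col1a2*. Of the 6 fibroblast markers, 3 had a positive and 3 a negative log2 fold change in 20% O2 (median -0.12), and *Vim* was 1481 CPM in Ctrl and 1836 CPM in cKO TFs. Those of mural cells were at most 109 CPM, of immune cells at most 25.4 CPM and of epithelial cells at most 0.236 CPM in any library, and *Pax7* and *Ckm* of skeletal muscle were at 0 in all 18. *Acta1*, the only muscle marker that passed the filter on low counts, was called lower in cKO TFs in 20% O2 (-1.28), where the muscle sum was 22.0 to 41.8 CPM in Ctrl and 9.32 to 15.02 CPM in cKO TFs. Summed endothelial markers were at most 76.6 CPM, and 4 of the 5 were under 1 CPM in every library, so *Tek* carried the sum. Summed cartilage markers were 210 to 905 CPM over the 18 libraries. In cKO against Ctrl TFs in 20% O2, 3 of the 3 cartilage markers tested were negative and 0 were called. Schwann and nerve markers summed to 5.34 to 10.6 CPM in Ctrl and 9.65 to 16.3 CPM in cKO TFs in 20% O2, with 3 of 3 tested positive and 0 called.

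All 8 genes were expressed in every library. On a per-length scale (counts per kilobase of exon, scaled as TPM), the mean over 18 libraries was 455 ± 105 (SD) for *Col6a1* and 274 ± 94.0 for *Col8a1*, the 2 highest levels. Below them came *Col6a2* at 121 ± 30.7 and *Col16a1* at 70.9 ± 25.5, then *Col12a1* at 43.4 ± 24.2 and *Col6a3* at 43.0 ± 22.4. *Col8a2* at 20.6 ± 10.96 and *Col14a1* at 6.41 ± 3.24 were lowest. Every pair of neighbours in this order had overlapping ranges over the libraries. Per kilobase of coding sequence *Col8a1*, at 299 ± 101, stood above *Col6a1*, at 202 ± 46.3, so the order of these 2 depended on the length used.

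**Figure D1:**
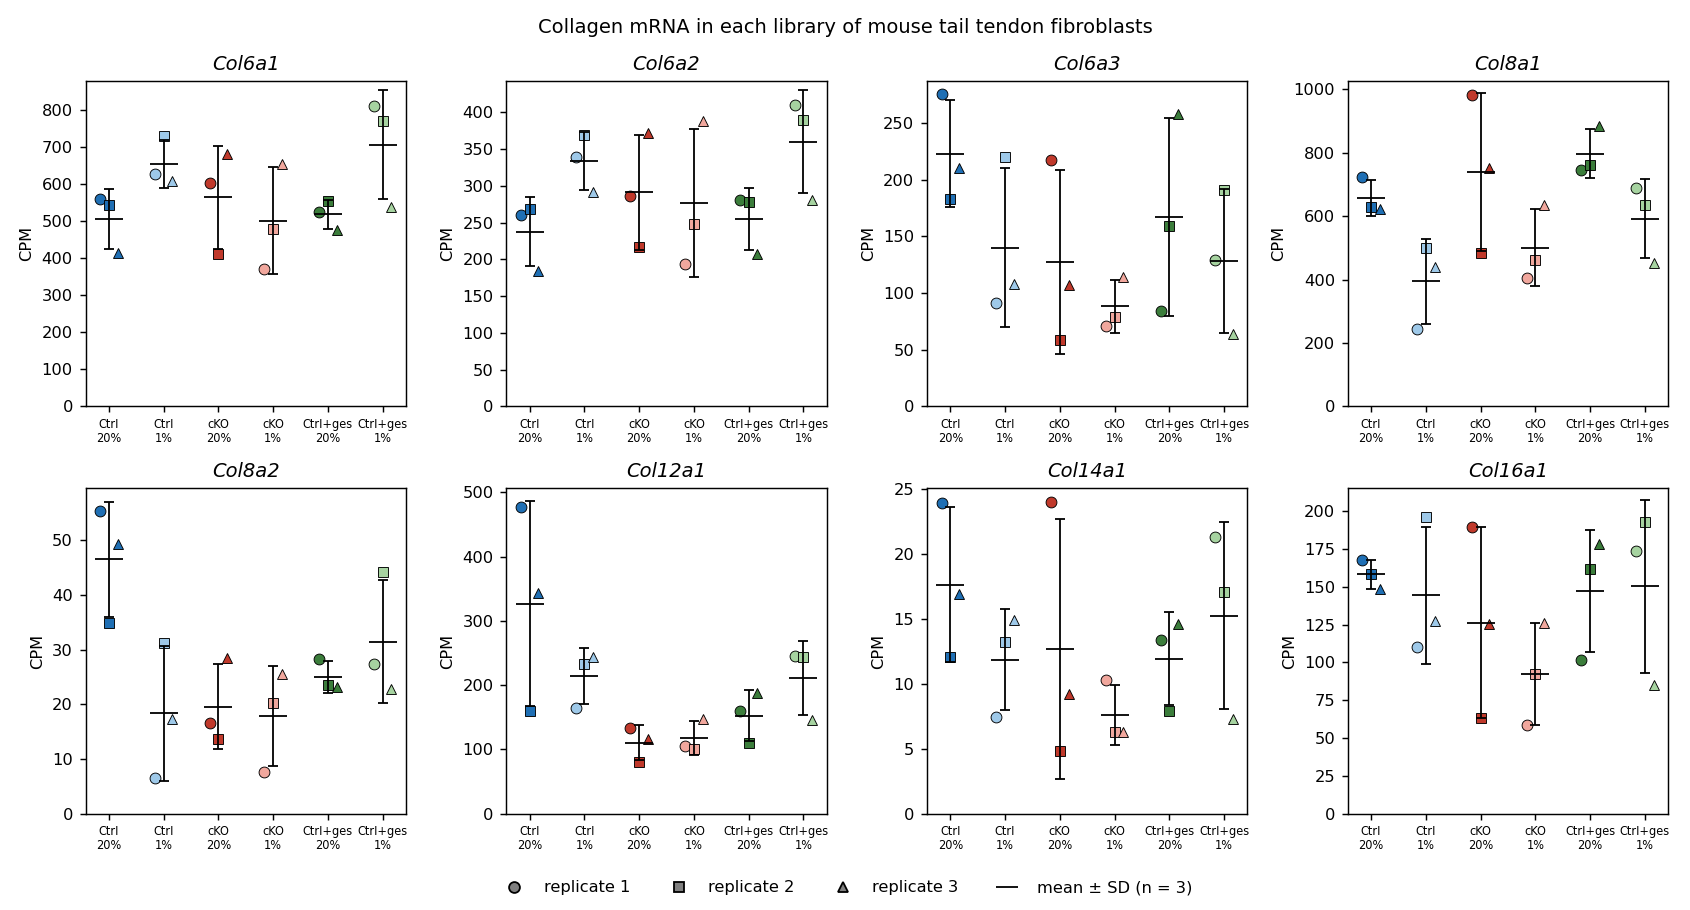
CPM of each gene in the 18 libraries (y axis, linear, from 0) by group (x axis, with ges for gesicles); marker shapes are replicate numbers, and bars are the mean ± SD of 3 libraries. *Col8a1* sits lower in 1% than in 20% O2 in each genotype, the 3 *Col12a1* values of cKO TFs lie between 81.0 and 134 CPM in 20% O2 against 159 to 477 CPM in Ctrl TFs, and most other groups overlap.

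The highest library was 2.18 times the lowest in CPM for *Col6a1* and 2.23 times for *Col6a2*, the steadiest of the 8, and 8.52 times for *Col8a2*. *Col16a1*, a FACIT of the fibril surface, was 168, 159 and 149 CPM in Ctrl TFs in 20% O2 and 110.2, 196 and 127 CPM in 1% O2. In cKO TFs *Col16a1* was 189.9, 63.5 and 125 CPM in 20% O2 and 58.8, 92.6 and 126 CPM in 1% O2. The Ctrl libraries in 20% O2 lay close together and those of the other groups were spread widely.

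The spread between libraries of the same group was large for these genes. The within-group SD of log2 CPM was 0.70 for *Col14a1*, 0.69 for *Col6a3* and 0.69 for *Col8a2*, against a median of 0.20 over the 8653 genes that were at or above the mean level of the lowest of the 8. Between 76.1% of those genes (for *Col6a1*) and 98.3% (for *Col14a1*) varied less within groups than the collagen did. For 6 of the 8 genes the within-group SD was above the SD between the 6 group means, and *Col8a1* (0.37 within and 0.39 between) and *Col12a1* (0.47 and 0.56) were the exceptions. After offsets for GC content and gene length, a scaling added after the data were seen, the within-group SD was 0.47 for *Col6a3* and 0.37 for *Col16a1*, which was 0.54 without them. It stayed at 0.63 for *Col14a1* and 0.62 for *Col8a2*, and the median of all genes was 0.18. What sets this spread was not tested.

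The response to 1% O2 was compared in Ctrl TFs first. *Col8a1* and *Col8a2*, the 2 chains of collagen VIII, were lower in all 3 libraries in 1% O2, *Col6a1* and *Col6a2* were higher in all 3, and 0 of the 8 genes passed the test. The test was edgeR's quasi-likelihood F test over all genes with Benjamini-Hochberg adjustment, with a gene called at an adjusted p under 0.05 and a fold of at least 1.5, and it called 1.88% of 15850 genes in this comparison. Groups did not overlap for 4 of the 8 genes and for 30.0% of all genes tested. At an unadjusted p under 0.05 there were 2 of the 8 and 16.1% of all genes, and DESeq2 also called 0 of the 8, with 4.55% of all genes. With the replicate numbers as a block, which were read as pairs here, DESeq2 called *Col8a1* at -0.82 (adjusted p = 0.04997).

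*Col8a2* was 55.3, 34.9 and 49.3 CPM in Ctrl TFs in 20% O2 and 6.49, 31.2 and 17.3 CPM in 1% O2. The highest value in 1% O2 lay just under the lowest in 20% O2, and replicate 1 in 1% O2 was far below the rest. The log2 fold change was -1.34 (SE 0.51, 95% interval -2.44 to -0.23, edgeR adjusted p = 0.223). *Col8a1*, the more abundant chain, was 724, 628 and 623 CPM in 20% O2 and 243, 500.4 and 438 CPM in 1% O2. Here the groups were clearly apart, and the log2 fold change was -0.73 (SE 0.28, 95% interval -1.35 to -0.12, edgeR adjusted p = 0.228).

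None of the collagen VI chains passed the test in Ctrl TFs, and their values had different signs. *Col6a1* was 560.2, 545 and 414 CPM in 20% O2 and 627, 729.6 and 609 CPM in 1% O2, which was 0.38 higher on the log2 scale (SE 0.22, 95% interval -0.11 to 0.86, adjusted p = 0.447). *Col6a2* was 259.6, 269 and 184 CPM in 20% O2 and 339, 369.5 and 292 CPM in 1% O2, which was 0.50 higher (SE 0.26, 95% interval -0.062 to 1.05, adjusted p = 0.376). For both genes every library in 1% O2 was above every library in 20% O2. *Col6a3*, which encodes the long α3 chain, was 276, 183 and 211 CPM in 20% O2 and 91.1, 220.3 and 108 CPM in 1% O2. Replicates 1 and 3 were low in 1% O2 and replicate 2 was not, so the groups overlapped (log2 fold change -0.67, 95% interval -1.59 to 0.26, edgeR adjusted p = 0.489). With the replicate block and the GC and length offsets together, *Col6a2* was called at 0.68 (edgeR adjusted p = 0.00945).

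Among the FACITs, the log2 fold changes in Ctrl TFs were -0.60 for *Col12a1* (95% interval -1.32 to 0.11), -0.57 for *Col14a1* (-1.61 to 0.48) and -0.13 for *Col16a1* (-0.89 to 0.64). The groups overlapped for each of the 3, and these intervals include both no change and changes of more than 1.5-fold. Over the 8 genes 2 fold changes were positive and 6 negative, with a median of -0.58 against 0.00 over all genes tested.

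In cKO TFs 0 of the 8 genes were called in 1% against 20% O2, where 2.10% of all genes tested were, and 0 of the 8 had groups that did not overlap, against 20.6% of all genes. The count at an unadjusted p under 0.05 was 0 (19.8% of all genes), and DESeq2 also called 0 (6.29%). *Col8a1* was 982, 484 and 752 CPM in 20% O2 and 404, 463 and 636 CPM in 1% O2. It was lower in 1% O2 in each replicate number, but replicate 2 in 20% O2 lay inside the range of the 1% O2 group (log2 fold change -0.55, 95% interval -1.17 to 0.066, edgeR adjusted p = 0.303). The other values were -0.16 for *Col6a1*, -0.065 for *Col6a2*, -0.51 for *Col6a3*, -0.096 for *Col8a2*, 0.10 for *Col12a1*, -0.75 for *Col14a1* and -0.43 for *Col16a1*. *Col6a3* and *Col14a1* each had their highest cKO value in replicate 1 in 20% O2, at 217 and 24.0 CPM, and without that library their log2 fold changes were 0.10 and 0.080.

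The difference between the genotypes in the O2 response was tested directly as an interaction, and 0 of the 8 genes and 0% of all genes were called. DESeq2 called 0 of the 8 and 0.00701% of all genes, and at an unadjusted p under 0.05 it was 0 of the 8 and 2.32% of all genes. The largest interaction term was that of *Col8a2*, at 1.24 on the log2 scale (95% interval -0.31 to 2.79), and that of *Col12a1* was 0.71 (-0.30 to 1.72). Those of *Col6a1* and *Col6a2* were -0.54 (-1.23 to 0.15) and -0.56 (-1.35 to 0.23).

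Gesicle-treated Ctrl TFs gave a further set of values for the O2 response, from libraries that the Ctrl and cKO comparisons did not use. In them 0 of the 8 genes were called (2.41% of all genes were), 0 were called by DESeq2 (4.75%), and 0 were at an unadjusted p under 0.05 (17.3%). *Col8a1* was 745, 761 and 886 CPM in 20% O2 and 689, 636 and 451 CPM in 1% O2. It was the only one of the 8 genes whose groups did not overlap here (24.0% of all genes did not), at a log2 fold change of -0.43 (95% interval -0.999 to 0.14, edgeR adjusted p = 0.438). *Col6a1* and *Col6a2* stood at 0.45 and 0.50 (95% intervals -0.013 to 0.91 and -0.031 to 1.03), while *Col6a3* stood at -0.38 (-1.43 to 0.66). With the replicate block *Col6a2* was at 0.49 (edgeR adjusted p = 0.0375), under the fold minimum and not called. DESeq2 with the block gave it an adjusted p of 0.00766. *Col8a2*, *Col12a1* and *Col14a1* had positive values of 0.33, 0.47 and 0.35, where those of Ctrl TFs without gesicles were negative. Tested as an interaction, gesicles shifted the O2 response of *Col8a2* by 1.68 log2 units (95% interval 0.27 to 3.08) and of *Col12a1* by 1.08 (0.081 to 2.08). Both had an edgeR adjusted p of 1.00, and 0 of all genes were called by edgeR or DESeq2. At an unadjusted p under 0.05 there were 2 of the 8 genes and 243 of all 16174, and the Ctrl libraries without gesicles entered each of these terms.

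**Figure D2:**
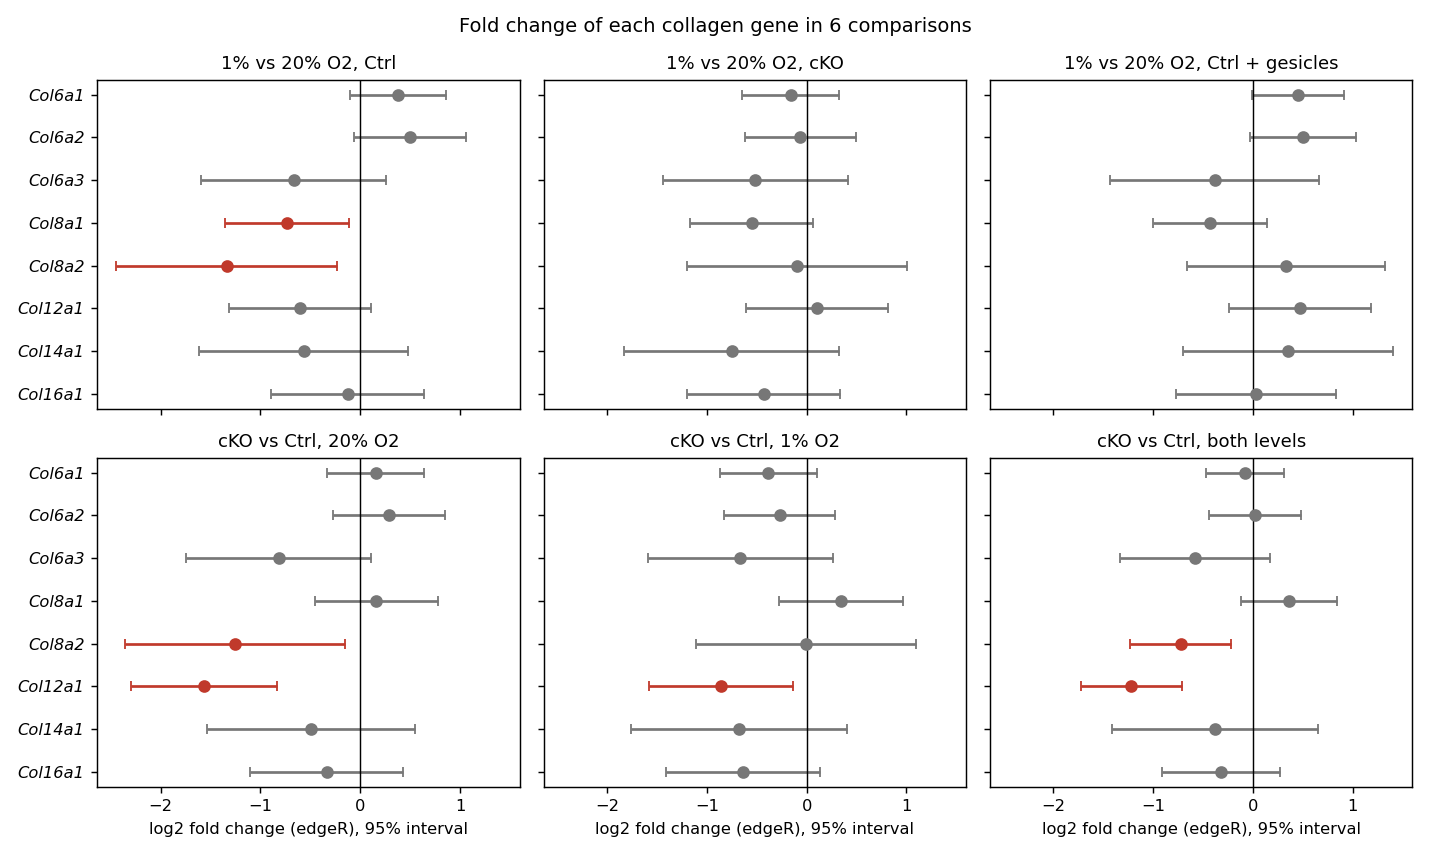
Log2 fold change of each gene with its 95% interval (x axis) in 6 comparisons (panels), from edgeR; points whose interval lies below 0 are red, and 0 of the points shown are called. *Col12a1* is lower in cKO than in Ctrl TFs at both O2 levels, *Col8a1* is below 0 in all 3 O2 panels, and *Col6a1* and *Col6a2* sit near 0.4 to 0.5 in the Ctrl and gesicle panels and near 0 in cKO TFs.

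Of the 8 genes *Col8a1* had the most regular sign between O2 levels. Libraries in 1% and 20% O2 with the same replicate number were set side by side within Ctrl, cKO and gesicle-treated TFs. *Col8a1* was lower in 1% O2 in all 9 of these pairs, with log2 differences from -1.57 to -0.065. Only those of Ctrl TFs were read as pairs from the data. In the cKO and gesicle arms the data showed neither that libraries of the same number are pairs nor that they are not. The share of all genes with such a count is not given. Averaged over the Ctrl, cKO and gesicle arms, a comparison added after the data were seen, *Col8a1* was 732 ± 147 CPM in 20% O2 and 496 ± 139 CPM in 1% O2 (SD, n = 9). The log2 fold change was -0.58 (SE 0.16, 95% interval -0.91 to -0.25, edgeR adjusted p = 0.0136), a 1.49-fold decrease. It passed the threshold on adjusted p, and lay just under the fold minimum of 1.5, so it was not among the 10.5% of genes called. With the replicate block the adjusted p was 0.0167, and DESeq2 called it at -0.59 (adjusted p = 0.0024), as 1 of the 8 and among 10.8% of all genes. At an unadjusted p under 0.05 it was the only one of the 8, against 37.4% of all genes. *Col6a2* was higher in 1% O2 in 8 of the 9 pairs and *Col6a1* in 7, with averages of 0.30 (95% interval -0.00028 to 0.61, edgeR adjusted p = 0.134) and 0.22 (-0.049 to 0.48, adjusted p = 0.219). For *Col6a2* the adjusted p was 0.00883 with the replicate block. The other 5 genes were lower in 4 to 7 of the 9 pairs. The labels do not say which libraries share mice, so these are not 9 independent animals.

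**Figure D3:**
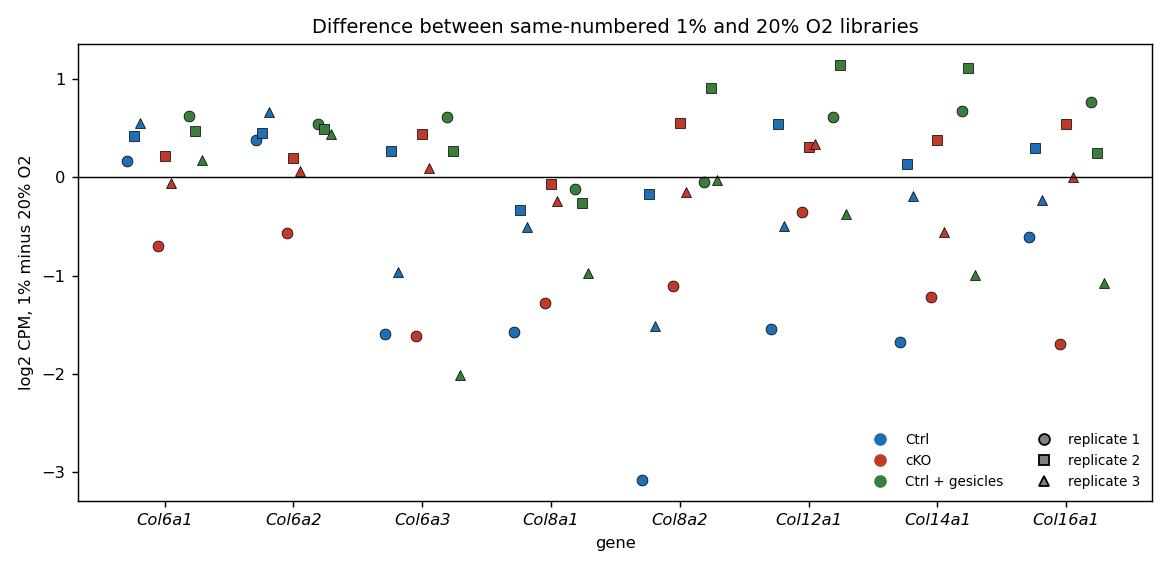
Log2 CPM in 1% minus 20% O2 (y axis) for each pair of libraries with the same replicate number, by gene (x axis); colours are arms and shapes replicate numbers. All 9 points of *Col8a1* lie below 0, 8 of 9 points of *Col6a2* lie above it, and *Col8a2* of Ctrl replicate 1 is the lowest point at -3.08.

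The next question was whether loss of *Hif1a* in the *Scx* lineage changed these collagens. *Col12a1*, a FACIT of dense connective tissue that bridges collagen fibrils, had the largest difference of the 8 genes at both O2 levels, and was lower in cKO TFs. In 20% O2 it was 477, 159 and 343 CPM in Ctrl TFs and 134, 81.0 and 117 CPM in cKO TFs. Every cKO library was below every Ctrl library, although Ctrl replicate 2 came close to the cKO range. The log2 fold change was -1.57 (SE 0.34, 95% interval -2.30 to -0.84, edgeR adjusted p = 0.0781), which missed the threshold. In 1% O2 it was 164, 233 and 244 CPM in Ctrl TFs and 105, 101 and 148 CPM in cKO TFs, again with no overlap, and the log2 fold change was -0.86 (SE 0.33, 95% interval -1.58 to -0.14, edgeR adjusted p = 0.247).

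With the counts of both O2 levels summed for each genotype and replicate number, *Col12a1* was 273 ± 66.1 CPM in Ctrl and 117 ± 23.8 CPM in cKO TFs (SD, n = 3). The log2 fold change was -1.22 (SE 0.22, 95% interval -1.73 to -0.72), and the edgeR adjusted p of 0.0957 again missed the threshold. Whether *Col12a1* was called depended on the fit. DESeq2 gave an adjusted p of 5.2e-04 in 20% O2, 0.131 in 1% O2 and 3.2e-05 over both levels. Over both levels, edgeR on the 12 libraries as separate samples gave 0.0192, or 0.0207 with the replicate block. These last 2 fits count the O2 levels of a replicate number as separate replicates of the genotype. Such libraries may come from 1 mouse, so a mouse can be counted more than 1 time. The block also ties Ctrl and cKO libraries that share only a number. Without replicate 2 of Ctrl TFs in 20% O2, the log2 fold change in 20% O2 was -1.90 and was called (edgeR adjusted p = 0.0158). The fibroblast marker sum was lower in cKO TFs in 20% O2, with 3 of its 6 genes positive and 3 negative, as given above. In 1% O2 and over both levels 1 of the 6 was positive and 5 were negative, with medians of -0.57 and -0.24, and edgeR called 0. The 5 mural markers were all negative, with a median of -0.77 in 20% O2 and -0.63 in 1% O2, and edgeR called 0. DESeq2 called 2 of the 5 in 20% O2 (2.94% of all genes), 0 in 1% O2 (2.12%) and 2 over both levels (3.59%). Fewer cells of a type and less RNA per cell cannot be told apart in these bulk libraries. The part of these markers in the *Col12a1* values was not tested.

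*Col8a2* was the other gene with no overlap in 20% O2, at 16.6, 13.7 and 28.4 CPM in cKO TFs against 55.3, 34.9 and 49.3 CPM in Ctrl TFs. All 3 cKO values lay below the Ctrl range. The log2 fold change was -1.25 (SE 0.51, 95% interval -2.35 to -0.15, edgeR adjusted p = 0.318). In 1% O2 the genotypes overlapped widely, at 7.68, 20.2 and 25.6 CPM in cKO TFs against 6.49, 31.2 and 17.3 CPM in Ctrl TFs (log2 fold change -0.0091, 95% interval -1.11 to 1.09). Over both levels *Col8a2* stood at -0.73 (95% interval -1.23 to -0.22, edgeR adjusted p = 0.249), with the cKO sums below the Ctrl sums.

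Of the 8 genes 0 were called between genotypes in 20% O2, where 0.347% of all genes were, 0 in 1% O2 (0.0379% of all genes) and 0 over both levels (0.150%). DESeq2 called 1 of the 8 in 20% O2 (2.94% of all genes), 0 in 1% O2 (2.12%) and 1 over both levels (3.59%), in each case *Col12a1*. Lower values with no overlap were seen for 2 of the 8 in 20% O2, 1 in 1% O2 and 2 over both levels, against 10.3%, 15.2% and 12.4% of all genes tested. In either direction the counts of the 8 were the same, against 21.2%, 27.3% and 22.7% of all genes tested. At an unadjusted p under 0.05 the counts were 2, 1 and 2, against 14.3%, 16.8% and 14.0% of all genes.

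Between genotypes none of the collagen VI genes was called, and their groups overlapped at each O2 level. *Col6a1* was 603, 411 and 682 CPM in cKO TFs in 20% O2 and 371, 479.6 and 656 CPM in 1% O2. *Col6a2* was 286, 216 and 372 CPM in cKO TFs in 20% O2 and 194, 248 and 389 CPM in 1% O2. Within the cKO TFs, replicate 3 was highest for both genes at both O2 levels. Against Ctrl TFs the log2 fold changes in 20% and 1% O2 were 0.15 and -0.39 for *Col6a1* and 0.29 and -0.27 for *Col6a2*, and over both levels they were -0.080 (95% interval -0.47 to 0.31) and 0.018 (-0.44 to 0.48). These last intervals lie within changes of 1.5-fold in either direction, but they sum O2 levels whose values had opposite signs. The intervals at each level include larger changes. For *Col6a1* they were -0.33 to 0.64 in 20% O2 and -0.87 to 0.099 in 1% O2, and for *Col6a2* -0.27 to 0.85 and -0.83 to 0.29.

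*Col6a3* was 217, 58.3 and 107 CPM in cKO TFs in 20% O2 and 71.1, 79.1 and 115 CPM in 1% O2. In 20% O2 replicate 1 lay inside the Ctrl range and the other 2 libraries below it, and in 1% O2 replicate 3 lay inside it. The log2 fold changes were -0.82 in 20% O2 (95% interval -1.74 to 0.11), -0.66 in 1% O2 (-1.59 to 0.26) and -0.58 over both levels (-1.33 to 0.17). *Col14a1* and *Col16a1*, 2 further FACITs, stood at -0.49 and -0.34 in 20% O2, -0.68 and -0.64 in 1% O2, and -0.38 and -0.32 over both levels. Without replicate 1 of cKO TFs in 20% O2 those in 20% O2 were -1.33 and -0.75, and without replicate 2 they were -0.11 and -0.024. In 1% O2 the values with each library left out ran from -0.93 to -0.47 for *Col14a1* and from -0.92 to -0.36 for *Col16a1*. *Col14a1* was 24.0, 4.81 and 9.20 CPM in cKO TFs in 20% O2, a 3-library range that spans the whole Ctrl group of 23.9, 12.02 and 16.9 CPM. *Col8a1* had positive values of 0.16, 0.34 and 0.36, and its groups overlapped at each O2 level.

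Cre gesicles were compared with no gesicles in Ctrl TFs, and the untreated libraries here are the same ones used for the cKO comparison. In 20% O2 0 of the 8 genes and 0.0247% of all genes were called, with 0 of the 8 and 0.253% of all genes by DESeq2, and 1 of the 8 was at an unadjusted p under 0.05 against 3.67% of all genes. That gene was *Col12a1*, at 160.4, 109.9 and 188 CPM with gesicles against 477, 159 and 343 CPM without. Replicate 2 without gesicles lay inside the gesicle range, and the log2 fold change was -1.10 (95% interval -1.81 to -0.38, edgeR adjusted p = 0.784). *Col8a2* was 28.4, 23.5 and 23.1 CPM with gesicles, all below the untreated values, at -0.90 (95% interval -1.89 to 0.10). *Col8a1* was above them in all 3 libraries, at 0.28 (-0.29 to 0.84), so that groups did not overlap for 2 of the 8 genes, against 12.5% of all genes.

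In 1% O2 0 of the 8 genes and 0% of all genes were called between gesicle-treated and untreated Ctrl TFs, with 0 of the 8 by DESeq2, and 0 of the 8 had groups that did not overlap (6.32% of all genes). *Col8a1* was the only gene of the 8 at an unadjusted p under 0.05 (324 of 16174 genes in all), at 0.59 (95% interval 0.016 to 1.16, edgeR adjusted p = 1.00). With the replicate numbers as a block, 2 genes in all were called in 20% O2 in place of 4, none of them among the 8.

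Because the 3 collagen VI chains assemble into a common trimer, their mRNA ratios within a library were compared, which does not depend on library scaling. Per kilobase of exon, the ratio of *Col6a2* to *Col6a1* was 0.266 ± 0.0201 over 18 libraries and stayed between 0.228 and 0.312. The ratio of *Col6a3* to *Col6a1* was 0.0950 ± 0.0502 and ran from 0.0436 to 0.199. In Ctrl TFs in 20% O2 it was 0.180, 0.123 and 0.186, and in 1% O2 it was 0.0532, 0.111 and 0.0651. Every Ctrl library in 20% O2 was above every Ctrl library in 1% O2, by 2.21-fold on average on the log scale (2-sided exact permutation test, p = 0.1, the smallest that 3 against 3 libraries can give, and 0.56 adjusted over 14 tests).

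In cKO TFs the *Col6a3* to *Col6a1* ratio was 0.132, 0.0519 and 0.0574 in 20% O2 and 0.0701, 0.0604 and 0.0640 in 1% O2, and the O2 levels overlapped. The fall from Ctrl to cKO TFs in 20% O2 was 2.19-fold on the log scale, with cKO replicate 1 above Ctrl replicate 2 (2-sided exact permutation test, p = 0.2). With gesicles the ratio was 0.0589, 0.105 and 0.199 in 20% O2 and 0.0584, 0.0908 and 0.0436 in 1% O2, which also overlapped. The mean log2 ratio of *Col6a2* to *Col6a1* differed by at most 0.14 in any of the 7 comparisons, and 0 of the 14 tests reached a p of 0.05, which this design cannot reach. Coding length in place of exon length scales a ratio by the same factor in every library, so it cannot change these differences. With it *Col6a2* stood at 0.458 ± 0.0347 of *Col6a1*.

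**Figure D4:**
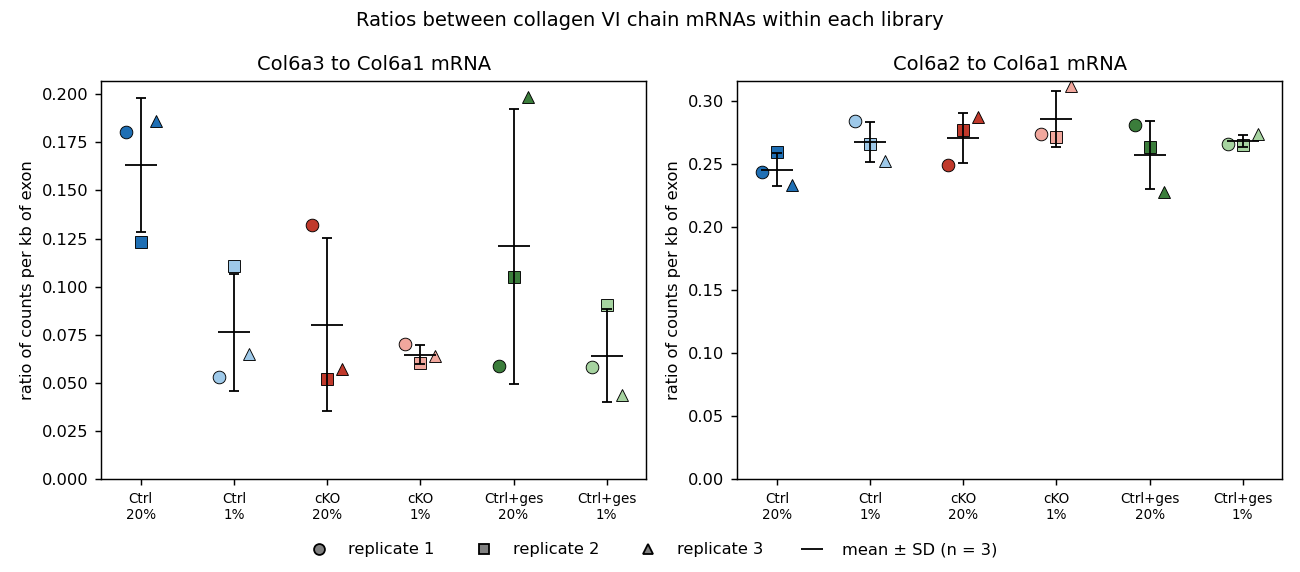
Ratio of counts per kilobase of exon (y axis, from 0) between collagen VI chain mRNAs in each library, by group (x axis); shapes are replicate numbers and bars the mean ± SD of 3 libraries. The *Col6a2* to *Col6a1* ratio is nearly flat, from 0.228 to 0.312, and the *Col6a3* to *Col6a1* ratio of Ctrl TFs in 20% O2 (0.123 to 0.186) lies above that in 1% O2 (0.0532 to 0.111).

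Correlations of log2 CPM over the 18 libraries describe the likeness of the genes. They share libraries and groups and are given with no test. *Col6a1* and *Col6a2* had a Pearson r of 0.96 (Spearman 0.94), and each was the other's most alike of 16173 genes. The r of *Col6a3* was 0.29 with *Col6a1* and 0.053 with *Col6a2*, where *Col6a1* ranked 4935 among the genes most like it. With group means removed these were 0.56 and 0.34, that of *Col6a1* with *Col6a2* was 0.96, and that of *Col6a1* with *Col8a1* was 0.69, where it was 0.14 over all libraries. The r of *Col6a3* was 0.90 with *Col16a1* and 0.72 with *Col14a1*, which ranked 475 and 1896 among the genes most like it. That of *Col12a1* with *Col14a1* was 0.74. The r of *Col8a1* with *Col8a2* was 0.62. After the GC and length offsets the r of *Col6a1* with *Col6a2* was 0.72, that of *Col6a1* with *Col6a3* 0.13, that of *Col6a3* with *Col16a1* 0.84 and that of *Col12a1* with *Col14a1* 0.57.

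**Figure D5:**
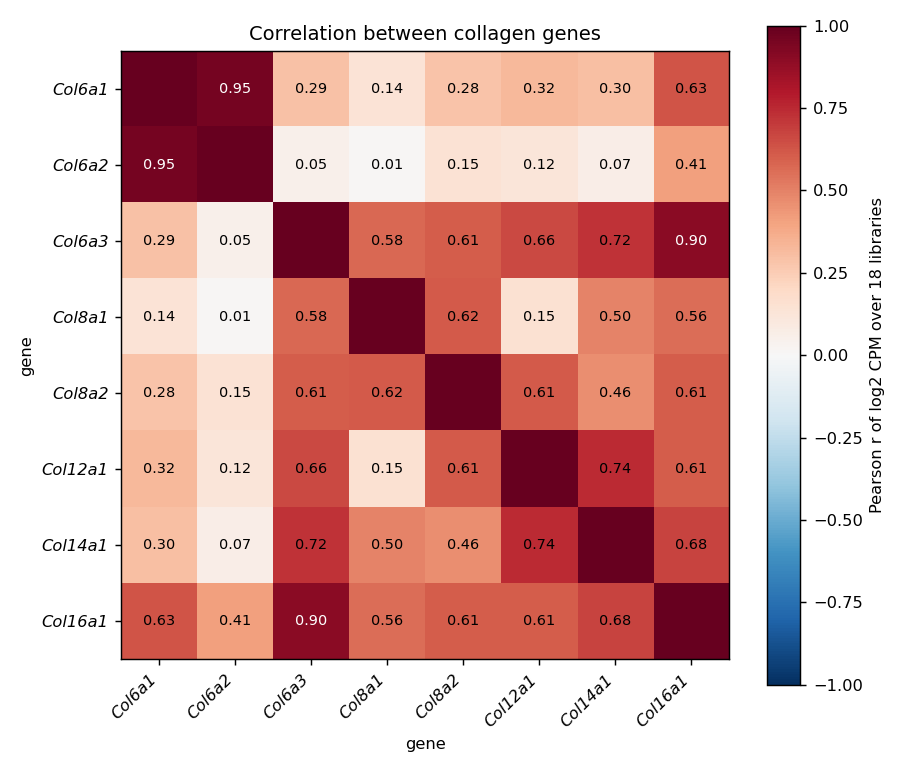
Pearson r of log2 CPM over 18 libraries for each pair of the 8 genes (both axes list the genes, and colour gives r from -1 to 1). *Col6a1* with *Col6a2* and *Col6a3* with *Col16a1* are the darkest pairs, and *Col6a2* is pale against every gene other than *Col6a1* and *Col16a1*.

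The genes most like each of the 8 over all 16173 others were, after *Col6a2*, *Emilin1* (r = 0.87) and *Mst1r* (0.86) for *Col6a1*, and, after *Col6a1*, *Cilp* (0.84) and *Maged1* (0.84) for *Col6a2*. *Emilin1* encodes a glycoprotein of elastic fibres and *Cilp* a matrix protein of cartilage and tendon. For *Col6a3* they were *Dgkd*, *Atxn1l* and *Sec16a* (0.98, 0.97 and 0.97), and for *Col16a1* *Cul7*, *Helz* and *Eif4g3* (0.98 each). For *Col8a1* they were *Nuak2*, *Lima1* and *Septin11* (0.92, 0.91 and 0.89), for *Col8a2* *Gm19410*, *Trim66* and *Ccdc80* (0.92, 0.88 and 0.86), for *Col12a1* *Cacna1c*, *Lrrc75b* and *Mafg* (0.92, 0.92 and 0.90), and for *Col14a1* *Mycbp2*, *Hectd4* and *Syde2* (0.88, 0.88 and 0.86).

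Genes that act with these collagens were followed as lists. Among 10 matrix partners, all tested, 2 were called higher in cKO than in Ctrl TFs in 20% O2, 1 in 1% O2 and 2 over both levels, and 0 were called lower. They were *Dcn*, which encodes decorin, a proteoglycan that binds collagen VI and fibrils, and *Lum*, which encodes lumican. *Dcn* was 212 ± 66.3 CPM in Ctrl and 828 ± 127 CPM in cKO TFs in 20% O2 (log2 fold change 1.96, edgeR adjusted p = 0.0233) and 122 ± 21.4 and 732 ± 268 CPM in 1% O2 (2.58, adjusted p = 0.0171). *Lum* was 1.15 ± 0.235 CPM in Ctrl and 12.5 ± 5.60 CPM in cKO TFs in 20% O2 (3.44, edgeR adjusted p = 0.0252). DESeq2 called *Dcn* and *Lum* in all 3 comparisons and also *Matn4*, which encodes a matrilin, in 1% O2 and over both levels. The median log2 fold change of the 10 in 20% O2 was 0.027, where that of all genes was 0.034.

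Of 10 receptors, 1 was called, over both levels. This was *Cspg4*, which encodes NG2, a membrane proteoglycan that binds collagen VI. It was 42.1 ± 1.49 CPM in Ctrl and 14.9 ± 2.49 CPM in cKO TFs (log2 fold change -1.504, edgeR adjusted p = 0.0175). With the 12 libraries as separate samples and the replicate block, in place of the sums, its edgeR adjusted p was 0.0516. *Cspg4* is also found on mural cells, whose summed markers were 61.6 to 109 CPM in Ctrl and 29.1 to 42.5 CPM in cKO TFs in 20% O2. Their part in this value was not tested. DESeq2 also called it in 20% O2, and called *Ddr1*, a receptor tyrosine kinase for collagens, lower in all 3 comparisons. Of 7 fibril-forming collagens 0 were called in any of the 3 genotype comparisons, with medians of -0.60 in 20% O2, -0.61 in 1% O2 and -0.46 over both levels. At an unadjusted p under 0.05 they numbered 2, 2 and 3 of the 7, all lower in cKO TFs, where 7.82%, 11.3% and 8.57% of all genes were lower at that p, and DESeq2 called *Col1a1* and *Col5a2* over both levels. Of 11 further collagens of the same families, 5 or 6 passed the filter on low counts and 0 were called between genotypes by either tool, with 1, 0 and 1 lower at an unadjusted p under 0.05. In the O2 comparisons within Ctrl, cKO and gesicle-treated TFs, 0 genes of the 4 lists were called by edgeR. At an unadjusted p under 0.05 there were 6, 5 and 3 genes of these lists, against 16.1%, 19.8% and 17.3% of all genes. DESeq2 called *Cspg4* lower in Ctrl TFs, and *Dcn* lower and *Fmod* higher in gesicle-treated TFs. Averaged over the 3 arms, 2 matrix partners were called lower in 1% O2, *Fbn1* at -0.88 (edgeR adjusted p = 0.0340) and *Dcn* at -0.61 (adjusted p = 0.0141), and *Fmod*, which encodes fibromodulin, was called higher at 0.70 (adjusted p = 0.0059). *Col22a1* was called higher as well, at a mean of 0.117 CPM in 20% and 0.413 CPM in 1% O2, near the floor of 3 counts.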

How the data were processed

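Poly-A RNA-seq counts of 18 libraries of tail TFs were analysed. The authors trimmed 151 bp paired reads, mapped them to GRCm38 with STAR, estimated counts per gene with RSEM 1.3.3 and deposited the estimated counts as whole numbers, without normalization. No further rounding was needed. Samples were grouped as labelled. The 8 genes and the lists were chosen with earlier results of these data known. The text names all 8 genes, called genes of the lists (at most the 4 largest changes per list and comparison) and the 3 genes most correlated with each of the 8. *Hif1a*, *Slc16a3*, *Ndufa4l2* and *Mgarp* are named as checks.

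Genes passing filterByExpr entered the quasi-likelihood F test of edgeR 4.0.16 after TMM scaling: 15850 genes in 12 Ctrl and cKO libraries, 16174 in all 18, and 16715 for sums of both O2 levels per genotype and replicate number. SEs are the log2 fold change over the square root of F. DESeq2 1.42.0, RLE factors, no filter, no fold minimum, GC and length offsets (splines of 4 degrees of freedom), the replicate block, other sets of libraries, *Xist* as a covariate and each library left out were tried. Scripts were tested on simulated data. No 2 libraries were copies (chi-square per degree of freedom of their counts at least 15.3). Exons, coding lengths and GC came from GENCODE M21. R 4.3.3, Python and scipy were used. Nothing in the labels says that replicates came from separate mice, so p-values measure the spread between these libraries. The floor of 3 counts covers counting error only.

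Deviations of same-numbered libraries from their group means correlated at 0.271, 0.300 and 0.458 between the O2 levels of Ctrl TFs, at 0.346, 0.462 and 0.405 with and without gesicles in 20% O2, and at 0.262, 0.193 and 0.284 in 1% O2, so these numbers were read as pairs from the data. In the other comparisons some were 0.1 or lower. The study's methods name a paired design without its pairing factor. The labels give 10% serum and the methods 1%, and serum was not used.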

Additional observations from a re-analysis of the deposited data

How the results depend on the processing

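Across the 11 comparisons, the count of called genes among the 8 was 0 in each and stayed so in 92 of 103 alternatives other than leaving out a library. It was 1 in the rest. In Ctrl TFs with 1% against 20% O2, 1 gene was called by DESeq2 with the replicate block (*Col8a1*, -0.82) and 1 by edgeR with the replicate block and GC and length offsets (*Col6a2*, 0.68). For cKO against Ctrl TFs the 1 called gene was *Col12a1*, at -1.58 by DESeq2, -1.58 with no filter on low counts and -1.54 by DESeq2 with the replicate block in 20% O2, and at -1.23, -1.22, -1.21 and -1.21 over both levels by DESeq2, with no filter, with 12 separate libraries and with these and the replicate block. The fits of 12 separate libraries count the O2 levels of a replicate number as separate replicates of the genotype, though they may share a mouse. For the average over the 3 arms, 1 gene (*Col8a1*) was called with no fold minimum and by DESeq2. Leaving out libraries gave 0 to 1 called genes for cKO against Ctrl TFs in 20% O2 (1 without replicate 2 of Ctrl TFs) and for the average over the arms, and 0 elsewhere. For the average, *Col8a1* was called without replicate 2 or 3 of Ctrl TFs at either O2 level, replicate 2 or 3 of cKO TFs in 20% O2, replicate 3 of cKO TFs in 1% O2, or replicate 1 or 2 of gesicle-treated TFs at either O2 level. The cause of these changes was not tested, other than that no fold minimum removes the limit that *Col8a1* missed.

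With the replicate block in edgeR, 0 of the 8 genes were called in each comparison with 1 library per sample. Over all genes the block gave 368 in place of 298 calls for O2 in Ctrl TFs, 444 in place of 333 in cKO TFs and 774 in place of 390 in gesicle-treated TFs, 64 in place of 55 for cKO against Ctrl TFs in 20% O2, and 2 in place of 6 in 1% O2. The check of the numbers held for O2 in Ctrl TFs and for gesicles against none. Elsewhere it did not hold, which does not show that the libraries are unpaired. For O2 in gesicle-treated TFs it did not hold either, though the sets that held would link these libraries through the untreated ones.

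Some values changed sign. In cKO TFs *Col6a2* was 0.15 with GC and length offsets and 0.14 with these and the replicate block. For cKO against Ctrl TFs in 1% O2, *Col8a2* was 0.0057 with RLE factors, 0.15 with the offsets and 0.17 with offsets and block, and *Col6a2* was 0.053 and 0.039 with the last 2. Over both levels *Col6a1* was 0.015 with the offsets, and *Col6a2* was -0.021 with separate libraries and the replicate block and -0.030 with *Xist* as a covariate. With each library left out, O2 responses ran from -0.41 to 0.034 for *Col16a1* in Ctrl TFs, and in cKO TFs from -0.39 to 0.031 for *Col6a1*, -0.38 to 0.15 for *Col6a2*, -0.85 to 0.10 for *Col6a3*, -0.42 to 0.28 for *Col8a2*, -0.084 to 0.26 for *Col12a1* and -1.14 to 0.080 for *Col14a1*, and from -0.81 to 0.073 for *Col6a3* with gesicles. For cKO against Ctrl TFs they ran from -0.010 to 0.33 for *Col6a1* and -0.093 to 0.38 for *Col8a1* in 20% O2, -0.41 to 0.61 for *Col8a2* in 1% O2, and -0.24 to 0.072 for *Col6a1* and -0.22 to 0.17 for *Col6a2* over both levels. Log2 differences of the *Col6a3* to *Col6a1* ratio ran from -0.43 to 0.25 for O2 in cKO TFs, -0.39 to 0.14 for genotype in 1% O2 and -0.52 to 0.061 for gesicles in 1% O2. For *Col6a2* to *Col6a1* they ran from -0.0030 to 0.15 and -0.036 to 0.051 for gesicles in 20% and 1% O2 and -0.019 to 0.13 for O2 with gesicles. The shallowest library, replicate 1 of cKO TFs in 1% O2, held 54 counts of *Col8a2* and 72 of *Col14a1*. Without it *Col8a2* was 0.25 for O2 in cKO TFs and 0.33 for genotype in 1% O2.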
